A study of Mus musculus with 8 samples.

Results

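The 44 genes described here carry out the licensing of replication origins and the synthesis of DNA, and all 44 were found by symbol among the 26608 genes listed for each library. They were chosen by function, with earlier results of these data known, and are described by role. The libraries were made by SAGE, which counts a short tag next to the last restriction site of each transcript, from neural tube tissue cut by laser from cryosections of FVB mouse embryos at embryonic day 8.5. All embryos came from diabetic dams, so both groups share the diabetic pregnancy and the comparison is between tissues. The 4 open neural tube libraries (numbered 9, 10, 13 and 14) hold normally shaped tissue from just in front of closure site 1, the point at which the folds start to join. The 4 protrusion libraries hold outgrowths from the open plate; the morphology labels say that protrusion 1 was separated from the plate and protrusions 2, 3 and 4 were attached. Nothing in the labels ties each library to an embryo of its own, and protrusions 1 and 2 have titles that begin alike. The p-values therefore reflect only the scatter among these 8 libraries, some of which may be technical.

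Before S phase, the origin recognition complex (ORC) sits on DNA and, with Cdc6 and Cdt1, loads the ring of MCM proteins 2 to 7, a step called licensing; geminin, the product of Gmnn, binds Cdt1 and prevents a repeat within the same cycle. Cyclin E with its kinase, Cdc45 and the GINS complex then turn the loaded ring into a moving helicase. Polymerase α with primase starts each strand, polymerases δ and ε extend it on the sliding clamp PCNA, Fen1 and Lig1 join the pieces of the lagging strand, and ribonucleotide reductase, made of Rrm1 and Rrm2 subunits, supplies the deoxynucleotides. The closing neural tube is a rapidly dividing epithelium, and most genes of this machinery are known to be switched on by E2F transcription factors at the entry into S phase.

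The counts rest on short tags, so the expected tags of the genes on which the results turn are shown, taken from GENCODE M21 transcripts of GRCm38, a later build than the mm9 that the submitters' processing notes name. Kits of this type are known to cut at CATG, shown in capitals, and the tag is that site with the bases after it, 27 in all. For each gene the principal coding transcript was read, and the sources used here do not state which tags the authors counted.
Rrm1, chr7:102469434-102469460, plus strand, 3′ UTR: CATGaacattggtctacaaatatctat
Rrm2, chr12:24714102-24714128, plus strand, 3′ UTR: CATGgcatacaagtattaaatgattta
Mcm5, chr8:75127531-75127557, plus strand, 3′ UTR: CATGccttctcaacaagatgagtctgg
Cdt1, chr8:122573096-122573122, plus strand, 3′ UTR: CATGtaagatttaaataaaatactact
Orc2, chr1:58462897-58462923, minus strand, 3′ UTR: CATGtactttcacagttttgcttaatt
Orc6, chr8:85307839-85307865, plus strand, 3′ UTR: CATGgacattagatcaaccatattgcc
Lig1, chr7:13311316-13311342, plus strand, 3′ UTR: CATGggcactgttggattggtggtgtt
Mcm6, chr1:128331591-128331617, minus strand, 3′ UTR: CATGaaaataaaacaacttgttctgtg
Fen1, chr19:10200516-10200542, minus strand, coding sequence: CATGgactgcctcacttttggcagccc

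A full tag of this kind was found for 42 of the 44 genes, 34 of them in the 3′ UTR and 5 in the coding sequence, and 0 of the 42 was also the last tag of another gene. In 12 genes the annotated coding transcripts end in more than 1 tag, and Orc2, Orc6 and Mcm6, shown above with 1 tag, are among them. The last CATG lay 28 to 1411 bases from the end of the transcript, with a median of 142. Prim2 and Pold2, whose last CATG lies 14 and 23 bases from the end, too few for a full tag, were among the lowest of the 44 genes, and so were Mcm6, at 28 bases, and Fen1, at 1411 bases. Distance alone did not order the levels, since the tag of Mcm5 lies 909 bases from the end. Levels set side by side between genes are tag counts scaled to a common library total (CPM), which do not grow with transcript length but do depend on the site. Cdk4, a kinase of the same cell cycle step, had 0 reads in all 8 libraries (chosen after its values were seen). Its annotated tag lies in the coding sequence, 1224 bases from the end of the transcript. Whether its transcript was absent or its tag was missed cannot be told from these counts. A low or absent tag is therefore not read here as a low transcript.

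Total counts ranged from 5668054 to 16655583 reads, so that 3 reads, taken as the floor, stood for 0.18 to 0.529 CPM. Such floors cover counting error only, since copies made by PCR are not separate molecules. The open neural tube libraries missed more genes of low level: of the 3280 genes whose mean lay at 5 to 20 CPM, they had 4.85% to 18.8% without a read, and protrusions had 0.0915% to 0.549%. Neural plate markers, 17 genes in all, summed to 254 to 1908 CPM in open neural tube and 641 to 1473 CPM in protrusions, with Nkx6-1 at 0 everywhere. Open neural tube 13 had the lowest of these sums. The sums hide a mixed list: of the 14 tested, 6 had a fitted log2 fold change (protrusion minus open neural tube) above 0 and 8 below. Their median was −0.97. Markers of the primitive streak and axial progenitors, 13 genes, summed to 5.43 to 48.2 CPM in open neural tube and 297 to 1324 CPM in protrusions, and those of paraxial mesoderm, 11 genes, to 136 to 1184 CPM and 951 to 1760 CPM. Endothelial markers, 10 genes, summed to 10.9 to 198 CPM against 2.29 to 42.9 CPM, and primitive erythroid markers, 8 genes, to 1.06 to 1010 CPM against 1.00 to 47.1 CPM, with Hbb-y at 0 everywhere. Surface ectoderm markers summed to 38.3 to 281 CPM against 63.0 to 174 CPM in protrusions. For neural crest markers the sums were 71.2 to 375 CPM against 42.0 to 124 CPM. Open neural tube 13 had the highest sum of its group for paraxial mesoderm, endothelium, surface ectoderm and neural crest. The part of this difference in tissue in the values below was not tested, and in bulk samples fewer cells of a type and less RNA per cell cannot be told apart.

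Replication genes as a whole took a like share of the reads in both groups. Their summed level was 8944 ± 959 CPM in open neural tube and 7821 ± 605 CPM in protrusions (SD, n = 4 each), under 1% of all reads in every library, and the ranges, 7720 to 9930 and 7324 to 8671 CPM, overlapped. The most abundant were Rrm2, Pcna, Lig1, Mcm5 and Mcm2, the 5 genes with a mean of at least 500 CPM; 13 lay between 100 and 500 CPM, 15 between 20 and 100 CPM and 11 below 20 CPM. In the plot of levels by role, the open neural tube values of the low genes are the more scattered. Among the 33 genes of at least 20 CPM, the median coefficient of variation was 24.9% in open neural tube (n = 4) and 15.1% in attached protrusions (n = 3), and 22 had group means within 1.5-fold of each other.

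**Figure D1:**
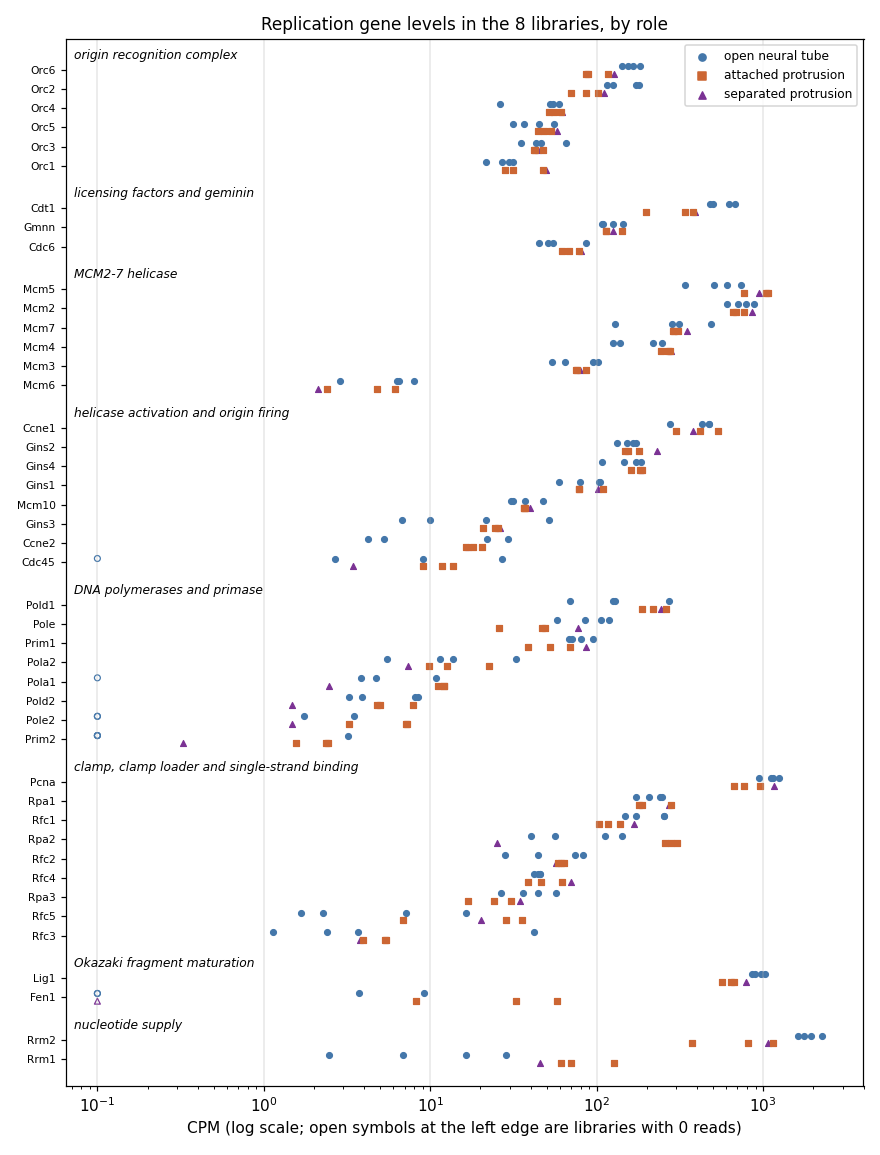
CPM on a log axis for each of the 44 genes (rows, grouped by role and ordered by mean) in the 8 libraries; circles are open neural tubes, squares attached protrusions, the triangle the separated protrusion, and open symbols at the left edge are libraries with 0 reads. Levels within a complex differ widely, and Rrm1, Mcm5, Cdt1, Lig1, Rrm2, Orc2 and Orc6 show the groups apart.

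The comparison of protrusions with open neural tube sets the outgrowths beside normally shaped tissue. No gene of the 44 passed a Benjamini-Hochberg adjusted p of 0.05 in edgeR's quasi-likelihood test over 11036 genes, where 0.607% of all genes passed, 0.281% higher and 0.326% lower. All 44 were kept by the low-count filter. At an unadjusted p of 0.05, 9 genes passed, 2 higher (Mcm5, Rrm1) and 7 lower (Orc2, Orc6, Cdt1, Pole, Rfc1, Lig1, Rrm2), where 15.3% of all genes did, 7.02% higher and 8.33% lower. DESeq2 called 5 of the 44 (Orc6, Cdt1, Lig1 and Rrm2 lower, Rrm1 higher), with 7.39% of all genes called, 3.79% higher and 3.6% lower. Limma-voom called 2 (Cdt1 and Rrm2, both lower), with 3.52% of all genes called, 2.07% higher and 1.46% lower. With sample weights it called 0 of the 44 and 2.01% of all genes, 1.11% higher and 0.897% lower. The 4 protrusion values lay all above the 4 open neural tube values for 2 genes and all below for 5, where 8.84% and 4.55% of all genes did so. Together these 7 are 15.9% of the 44, against 13.4% of all genes, so the share with both directions pooled was near the background. The pooled share hides that more lay below than above, while over all genes more lay above. Among the 18 genes with a mean of at least 100 CPM, 5 lay below and 1 above, and of all genes at that level 12.9% lay below and 8.87% above. Among the 26 genes under 100 CPM, 0 lay below and 1 above, and of all genes at that level 2.81% lay below and 8.84% above. The median log2 fold change (protrusion minus open neural tube) was −0.04 over the 44 and 0.08 over all genes tested, and 19 fitted values were above 0 and 25 below. Among genes with a mean of at least 20 CPM, the median was −0.047 for replication genes and −0.035 for all genes.

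**Figure D2:**
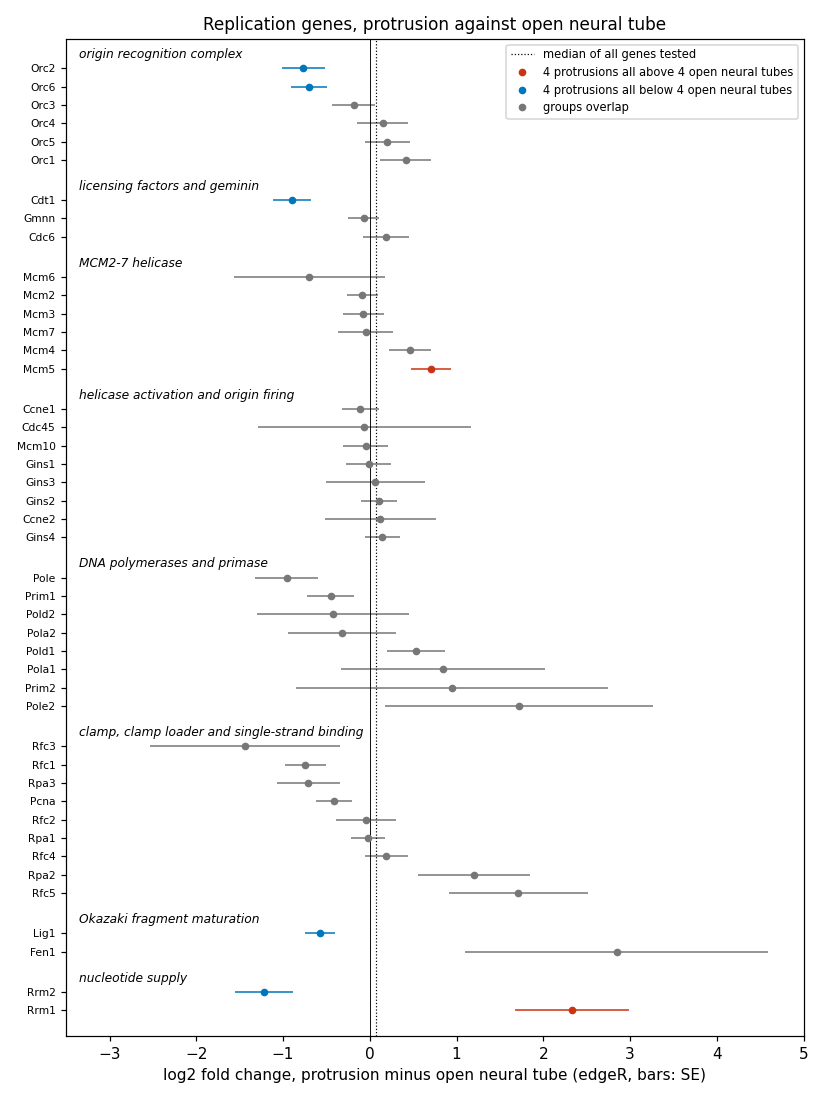
Log2 fold change of each of the 44 genes, protrusion minus open neural tube, with its SE from edgeR (n = 4 against 4), grouped by role; the dotted line is the median of all genes tested, and colour marks genes whose 4 protrusion values lie all above (red) or all below (blue) the open neural tube values. The values centre near 0, with Mcm5 and Rrm1 coloured above and Orc2, Orc6, Cdt1, Lig1 and Rrm2 below.

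The 2 subunits of ribonucleotide reductase, which supplies deoxynucleotides, stood apart in opposite directions. Over all genes, 8.84% stood apart above and 4.55% below. Among genes with a mean of at least 100 CPM, as Rrm2 has, 12.9% stood apart below. Among those under 100 CPM, as Rrm1 is, 8.84% stood apart above. Rrm2, the small subunit made in S phase, was at 2263, 1923, 1623 and 1762 CPM in open neural tubes 9, 10, 13 and 14, and at 1074, 1145, 373 and 807 CPM in protrusions 1 to 4. Every protrusion lay below every open neural tube, and protrusion 3 was the lowest. Its log2 fold change was −1.22 ± 0.33 (SE; edgeR adjusted p = 0.0962). Rrm1, the large subunit that holds the active site, was at 16.5, 2.47, 28.6 and 6.80 CPM in the open neural tubes, and at 45.5, 70.1, 128 and 61.2 CPM in protrusions 1 to 4. Here every protrusion lay above every open neural tube, and protrusion 3 was the highest. Its log2 fold change was 2.33 ± 0.65 (SE; edgeR adjusted p = 0.105), on 14 reads in open neural tube 10 and 57 reads in open neural tube 14. Without open neural tube 13, the highest of its group, it was 3.03, and over the 16 alternatives it ran from 2.05 to 3.03. The ratio of Rrm2 to Rrm1 tags ran from 56.7 to 778.5 in the open neural tubes and from 2.92 to 23.6 in the protrusions. These are levels of tags and not of subunits, and the ratio adds no test to the pair. Among the open neural tubes, Rrm1 was lower the larger the share of genes at 5 to 20 CPM without a read. That share ran from 4.85% in open neural tube 13 to 18.8% in open neural tube 10. The protrusions, with shares of 0.0915% to 0.549%, all had higher Rrm1. The part of such missed genes in the Rrm1 difference, and so in the ratio, was not tested.

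Cdt1, which brings the MCM ring to the origin, was at 501, 675, 477 and 625 CPM in open neural tubes 9, 10, 13 and 14, and at 391, 196, 381 and 337 CPM in protrusions 1 to 4. The groups did not overlap, and protrusion 2 was the lowest. Its log2 fold change of −0.90 ± 0.22 (SE; edgeR adjusted p = 0.0820) had the smallest p of the 44. Its inhibitor geminin stood at 121 ± 17.1 CPM in open neural tube and 124 ± 13.1 CPM in protrusions (SD, n = 4 each). Cdc6, the loading ATPase that works with Cdt1, was at 85.7, 45.2, 54.6 and 51.0 CPM in the open neural tubes and at 80.2, 61.8, 68.1 and 77.6 CPM in the protrusions. These ranges overlapped, and its log2 fold change was 0.19 ± 0.27 (SE; edgeR adjusted p = 0.816). Licensing genes thus gave 1 gene with groups apart of 3, where 13.4% of all genes had groups apart. So few genes cannot be told from that share, and the differences between Cdt1 and its partners were not tested.

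Of the 6 ORC subunits, the complex that marks origins, the 2 most abundant lay lower in protrusions. Over all genes, 4.55% lay lower without overlap, and 12.9% did among genes with a mean of at least 100 CPM, as both have. Orc2 was at 180, 115, 125 and 171 CPM in open neural tubes 9, 10, 13 and 14, and at 110, 86.2, 70.2 and 102 CPM in protrusions 1 to 4. The gap between the groups was narrow, with open neural tube 10 closest to protrusion 1. The fitted log2 fold change was −0.77 ± 0.25 (SE; edgeR adjusted p = 0.159). Orc6 was at 165, 142, 154 and 181 CPM in the open neural tubes and at 127, 88.5, 86.7 and 116 CPM in the protrusions. Again the separated protrusion was the protrusion nearest to the open neural tubes. The difference on the log2 scale was −0.70 ± 0.21 (SE; edgeR adjusted p = 0.126). The other subunits overlapped between the groups: Orc3, Orc4 and Orc5 had group means of 42.0 to 57.3 CPM, and Orc1, the subunit that cycles with licensing, stood at 27.4 ± 4.29 CPM against 39.1 ± 10.8 CPM in protrusions (SD, n = 4 each; edgeR adjusted p = 0.584).

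**Figure D3:**
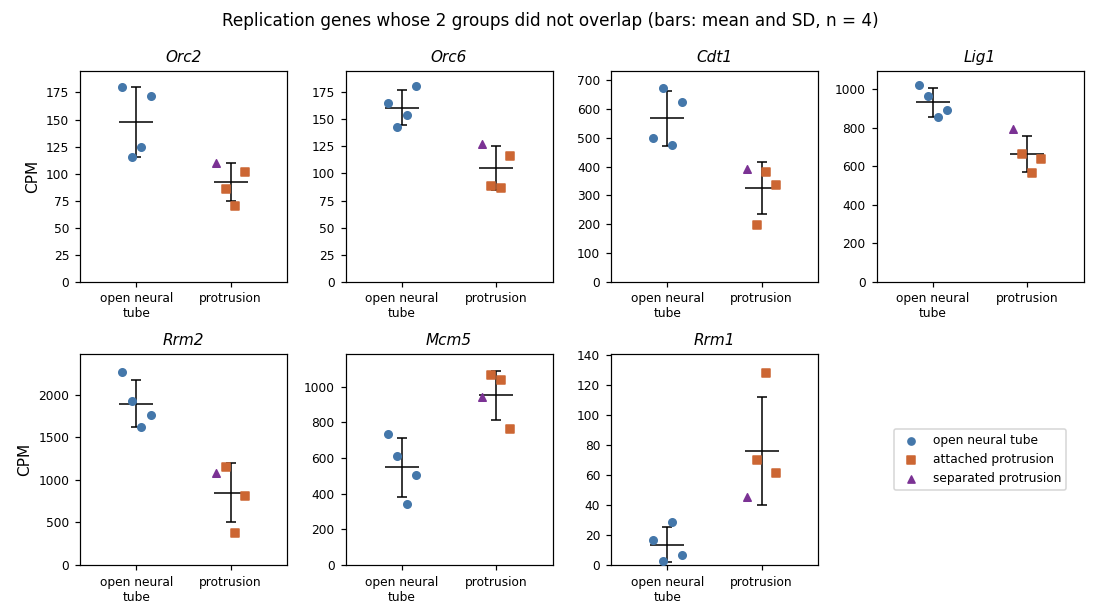
CPM in each library for the 7 genes whose groups did not overlap, on linear axes from 0, with the mean and SD of each group (n = 4); circles are open neural tubes, squares attached protrusions and triangles the separated protrusion. Rrm2 lay at 1623 to 2263 CPM in open neural tube and 373 to 1145 CPM in protrusions, while Rrm1 lay at 2.47 to 28.6 CPM and 45.5 to 128 CPM.

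The MCM ring, the core of the replicative helicase, had 1 subunit of 6 with groups apart, where 13.4% of all genes had groups apart. Mcm5 was at 734, 610, 340 and 506 CPM in open neural tubes 9, 10, 13 and 14, and at 940, 1065, 1040 and 762 CPM in protrusions 1 to 4. Protrusion 4 lay just above open neural tube 9, and open neural tube 13 was the lowest. The fitted log2 fold change was 0.71 ± 0.23 (SE; edgeR adjusted p = 0.166). Mcm4 was at 217, 125, 138 and 247 CPM in the open neural tubes and at 280, 276, 269 and 242 CPM in the protrusions. Only protrusion 4 fell within the open neural tube range, and the log2 fold change was 0.46 ± 0.24 (SE; edgeR adjusted p = 0.419). Mcm2 stood at 742 ± 116 CPM in open neural tube and 741 ± 92.5 CPM in protrusions, Mcm3 at 78.8 ± 23.5 and 79.1 ± 5.27 CPM, and Mcm7 at 303 ± 147 and 308 ± 28.0 CPM (SD, n = 4 each). Mcm6 was far below its partners, at 2.13 to 7.93 CPM over the 8 libraries, on 13 to 132 reads. Although the ring holds its subunits in equal number, Mcm2 and Mcm5 together gave most of its tags. The share of Mcm5 in the summed tags of the ring ran from 23.9% to 33.2% across the open neural tubes and from 37.5% to 43.8% across the protrusions, and that of Mcm2 from 37.0% to 42.3% and from 28.8% to 34.3%. Since the shares of a sum move against each other, this restates the Mcm5 difference.

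Genes that turn the loaded ring into a helicase showed no group apart, where 13.4% of all genes had groups apart. Ccne1, cyclin E1, the most abundant of these 8, was at 470, 470, 274 and 427 CPM in the open neural tubes and at 377, 415, 536 and 299 CPM in the protrusions. Both groups covered nearly the same range, and the log2 fold change was −0.11 ± 0.21 (SE; edgeR adjusted p = 0.873). Gins4, a subunit of GINS, was at 173, 184, 146 and 108 CPM in the open neural tubes and at 185, 187, 160 and 182 CPM in the protrusions (edgeR adjusted p = 0.814). Gins2 was at 172, 152, 133 and 165 CPM and at 231, 154, 148 and 179 CPM (edgeR adjusted p = 0.866). In both genes the groups overlapped. Gins1 had group means of 86.7 and 91.8 CPM and Mcm10, a helicase cofactor, of 36.5 and 37.4 CPM in open neural tube and protrusions. Gins3, Ccne2 and Cdc45, which rides with the helicase, were low and uneven in open neural tube, at 22.4 ± 20.3, 15.2 ± 12.4 and 9.67 ± 12.2 CPM, and stood at 24.3 ± 2.43, 18.0 ± 1.84 and 9.50 ± 4.49 CPM in protrusions (SD, n = 4 each). Each of these 3 differences was smaller than its SE.

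Polymerase subunits lay on both sides of 0. Pole, the catalytic subunit of polymerase ε, was at 85.4, 106, 57.6 and 119 CPM in open neural tubes 9, 10, 13 and 14, and at 76.7, 46.9, 25.9 and 48.9 CPM in protrusions 1 to 4. Only the separated protrusion reached into the open neural tube range. On the log2 scale Pole differed by −0.96 ± 0.36 (SE; edgeR adjusted p = 0.231). Pold1, the catalytic subunit of polymerase δ and the most abundant of the 8, was at 68.7, 272, 130 and 126 CPM in the open neural tubes and at 242, 218, 262 and 186 CPM in the protrusions. Open neural tube 10 was above every protrusion and the other open neural tubes were below them, and the log2 fold change was 0.53 ± 0.33 (SE; edgeR adjusted p = 0.512). Prim1, the catalytic subunit of primase, was at 95.4, 80.8, 71.2 and 67.8 CPM and at 86.1, 38.9, 69.4 and 52.6 CPM (edgeR adjusted p = 0.491), with overlapping groups. The other 5 were low: Pola1, the catalytic subunit of polymerase α, and Pola2, Pold2, Pole2 and Prim2 had group means of 0.806 to 15.8 CPM. Prim2 had 0 reads in open neural tubes 9, 10 and 13 and 2 to 27 in the protrusions, so no fold is read from it.

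The sliding clamp and its partners had fitted values on both sides of 0. The groups overlapped for all 9 genes, where 13.4% of all genes had groups apart. Pcna was at 1245, 937, 1107 and 1149 CPM in the open neural tubes and at 1156, 664, 770 and 951 CPM in the protrusions. The separated protrusion was the highest of its group, and the log2 fold change was −0.42 ± 0.21 (SE; edgeR adjusted p = 0.380). Rfc1, the large subunit of the clamp loader, was at 254, 253, 148 and 172 CPM and at 167, 102, 138 and 117 CPM. The separated protrusion lay above open neural tube 13, the only overlap. On the log2 scale Rfc1 differed by −0.74 ± 0.23 (SE; edgeR adjusted p = 0.148). Among the small loader subunits Rfc2 and Rfc4 had group means of 44.3 to 59.9 CPM. Rfc5 was at 7.11, 16.4, 2.28 and 1.67 CPM in the open neural tubes and at 20.1, 35.7, 6.82 and 28.5 CPM in the protrusions (log2 fold change 1.71 ± 0.80, SE; edgeR adjusted p = 0.348), with protrusion 3 inside the open neural tube range. Without open neural tube 10 it was 2.57. Rfc3 had 42.2 CPM in open neural tube 10 and 1.14 to 5.45 CPM in the other 7 libraries. Of the single-strand binding proteins, Rpa1 stood at 217 ± 34.4 CPM against 229 ± 54.5 CPM in protrusions and Rpa3 at 41.1 ± 12.9 CPM against 26.5 ± 7.69 CPM (SD, n = 4 each; edgeR adjusted p = 0.983 and 0.390). Rpa2 stood at 87.6 ± 47.4 CPM against 216 ± 129 CPM in protrusions (SD, n = 4 each), a log2 fold change of 1.2 ± 0.64 (SE; edgeR adjusted p = 0.425), with the separated protrusion below every open neural tube.

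Of the 2 genes that finish the lagging strand, Lig1, the ligase, was lower in protrusions and Fen1, the flap nuclease, was too sparse to compare. Lig1 was at 1020, 963, 854 and 890 CPM in open neural tubes 9, 10, 13 and 14, and at 791, 663, 563 and 637 CPM in protrusions 1 to 4. The groups did not overlap, with the separated protrusion nearest to the open neural tubes. Of all genes 4.55% lay lower without overlap, and of those with a mean of at least 100 CPM, as Lig1 has, 12.9%. Its log2 fold change was −0.57 ± 0.17 (SE; edgeR adjusted p = 0.120). Fen1 was at 0, 9.17, 3.72 and 0 CPM in the open neural tubes and at 0, 32.5, 57.7 and 8.17 CPM in the protrusions. It was at 0 in the separated protrusion as in 2 open neural tubes, and the log2 fold change was 2.85 ± 1.75 (SE; edgeR adjusted p = 0.502). It was 4.15 without open neural tube 10, 2.12 without protrusion 3 and 5.11 in limma-voom with sample weights.

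Read by morphology label, the 3 attached protrusions against the 4 open neural tubes gave 0 of the 44 genes past the threshold, where 1.5% of all genes passed, 0.759% higher and 0.741% lower; the comparison shares the open neural tubes with the one above. The lowest adjusted p in edgeR were 0.0658 for Cdt1 (log2 fold change −1.01 ± 0.23, SE), 0.0795 for Lig1 (−0.67 ± 0.17), and 0.0816 for Orc6 (−0.82 ± 0.22), Rfc1 (−0.89 ± 0.24) and Rpa2 (1.58 ± 0.41). Rrm2 had −1.35 ± 0.37 (adjusted p = 0.0829) and Rrm1 2.50 ± 0.70 (adjusted p = 0.0871). With 1 separated library no test sets it against the attached ones. The separated protrusion lay below all 3 attached libraries for 12 of the 44 genes, where 34.3% of all genes did, and above all of them for 20, where 28.1% did. It was over 2-fold below their mean, and outside their range, for 7 genes, where 15.6% of all genes were, and over 2-fold above for 0, where 3.33% were. These folds add 1 CPM to each value, and 7 of 44 is near the background. Among the 7 were the low genes Cdc45, Pola1, Prim2, Pold2, Pole2 and Fen1. The other was Rpa2, the middle subunit of the single-strand binding protein, at 25.2 CPM in the separated protrusion against 305, 278 and 256 CPM in attached protrusions 2, 3 and 4. The open neural tubes had 40.5, 55.9, 113 and 141 CPM, so the attached protrusions were the highest of all 8 libraries and the separated protrusion the lowest, on 154 reads (Rpa2 chosen after its values were seen). Chtf8, a subunit of another clamp loader, likewise had 129 CPM in the separated protrusion, and the attached protrusions had 460 to 551 CPM (chosen after its values were seen, as is Ccnd1 below).

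**Figure D4:**
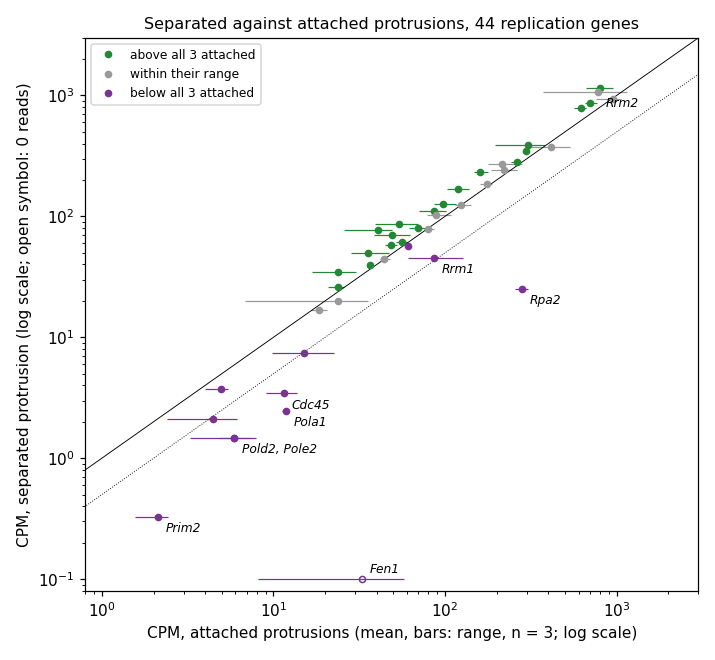
CPM of the 44 genes in the separated protrusion (vertical, log axis) against the mean of the 3 attached protrusions (horizontal, log axis, bars from lowest to highest); the solid line marks equal levels, the dotted line a 2-fold lower level, and the open symbol 0 reads. Rpa2, at 25.2 CPM against 256 to 305 CPM, is the only abundant gene far below the line.

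The wider replication pathway, from lists chosen with earlier results of these data known, gave 0 genes past the threshold in each of 5 lists. Of 18 tested genes of origin firing and fork stability, 3 lay above and 2 below in protrusions without overlap, 27.8% of the list against 13.4% of all genes. Those with the smallest p were Donson, a replisome factor, at 152 ± 29.9 CPM against 89.3 ± 15.9 CPM in protrusions, and Ccna2, cyclin A2, at 985 ± 25.2 against 697 ± 82.7 CPM (SD, n = 4 each; edgeR adjusted p = 0.0832 and 0.0849). Of 14 tested genes of further polymerase subunits, clamp loaders and strand maturation, 0 had groups apart, with Usp1, a deubiquitinase of the clamp, at a log2 fold change of −0.68 ± 0.28 and Pold3, a polymerase δ subunit, at 0.91 ± 0.42 (SE; edgeR adjusted p = 0.268 and 0.330). Of 12 tested genes of chromatin assembly behind the fork 0 had groups apart, with Rbbp4 at −0.36 ± 0.15 and Slbp at −0.39 ± 0.20 (SE; edgeR adjusted p = 0.274 and 0.394).

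Other genes of nucleotide supply were also found on both sides. Of 11 tested, 2 lay above and 2 below without overlap, 36.4% of the list against 13.4% of all genes. Dut, which breaks down dUTP, was at 431 ± 131 CPM in open neural tube and 804 ± 114 CPM in protrusions (SD, n = 4 each), a log2 fold change of 0.82 ± 0.23 (SE; edgeR adjusted p = 0.106). Of 20 tested E2F and pocket protein regulators, 2 lay above and 2 below, 20% of the list against the same 13.4%. Cdkn1a, which encodes the cyclin-dependent kinase inhibitor p21 and whose product also binds PCNA, stood at 2.42 ± 1.53 CPM in open neural tube and 36.2 ± 17.9 CPM in protrusions (SD, n = 4 each; log2 fold change 3.75 ± 0.77, SE; edgeR adjusted p = 0.0615). Rb1, the retinoblastoma protein that restrains E2F, stood at 64.4 ± 24.1 and 21.1 ± 6.6 CPM (SD, n = 4 each; log2 fold change −1.69 ± 0.38, SE; edgeR adjusted p = 0.0740). With attached protrusions alone Cdkn1a rose (log2 fold change 4.02, edgeR adjusted p = 0.0468), as did Ccnd1, cyclin D1 (1.59, adjusted p = 0.0491), and Chtf8 (1.09, adjusted p = 0.0495). Over all alternatives the adjusted p ran up to 0.177, 0.268 and 0.641 for these 3 genes.

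Of 26 mitotic genes, the list most like this one, 2 fell in protrusions and 0 rose: Bub1b, a spindle checkpoint kinase, and Cdk1, the mitotic kinase, at −1.10 ± 0.15 and −0.95 ± 0.15 on the log2 scale (SE; edgeR adjusted p = 0.0141 and 0.0385). The call held in 12 of 16 alternatives for Bub1b and in 9 for Cdk1. Their list had 4 genes above and 3 below without overlap, 26.9% against 13.4% of all genes, with 0.607% of all genes past the threshold. It had a median log2 fold change of 0.09. Whether the replication and mitotic lists differ was not tested.

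Promoters of replication genes are known for E2F sites, so RefSeq windows of GRCm38.p6, from 250 bases before to 50 after each start, were searched for the 8-letter spellings TTTCGCGC, TTTGGCGC, TTTCCCGC and TTTGCCGC on both strands. Of the 44 genes 35 matched a window, and 14 of their 43 windows (32.6%) held at least 1 spelling, against 2.26% of the 32851 windows of all genes. Among the 7 genes with groups apart, Mcm5 had a match before the start, Cdt1 and Lig1 a match after it, and Rrm1, Rrm2, Orc2 and Orc6 none. A stretch upstream of the start that holds a match, in capitals, is shown for Mcm5, the gene above with a match there, and for Orc1, Cdc6 and Mcm6, whose groups overlapped. In Mcm5 a pair of spellings, on opposite strands, share letters. The Mcm6 window holds 3 matches before the start, and the stretch shown holds 1 of them.
Mcm5, chr8:75109334-75109393, plus strand: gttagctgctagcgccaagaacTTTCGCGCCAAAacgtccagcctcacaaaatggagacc
Orc1, chr4:108579401-108579453, plus strand: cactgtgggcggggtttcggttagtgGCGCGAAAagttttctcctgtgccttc
Cdc6, chr11:98907987-98908046, plus strand: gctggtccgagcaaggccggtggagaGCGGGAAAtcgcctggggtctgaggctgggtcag
Mcm6, chr1:128359719-128359778, minus strand: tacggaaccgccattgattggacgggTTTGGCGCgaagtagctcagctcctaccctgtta
A match is a description of letters in the window and says nothing of binding in this tissue, and genes with and without one are found on both sides of 0.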

How the data were processed

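The 44 genes and the other lists were chosen with earlier results of these data known. The authors deposited whole-number tag counts per gene symbol, not normalized, per the file headers; libraries were made from 7 to 12 ng of total RNA with a SOLiD SAGE kit, per the labels' protocols. Build mm9 comes from the submitters' processing notes. Not given in the sources used here: how tags were mapped and assigned to genes, and whether strand was used. Groups came from titles and source names; protrusion numbers follow the order of listing.

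CPM were computed here from total counts. The test was that of edgeR 4.0.16 in R 4.3.3 (filterByExpr, minimum count 10; TMM factors; robust quasi-likelihood F test, 2-sided; Benjamini-Hochberg over all genes tested; threshold 0.05); SEs come from the F statistic. Alternatives were other scaling factors and filters, DESeq2 1.42.0, limma-voom (limma 3.58.1) and each library left out. Scripts were tested on simulated counts; a first bound on the share of changes found was replaced after the missed genes proved to lie at low levels. In that simulation DESeq2 made more false calls than its threshold allows, and edgeR and limma-voom made none. Its counts were drawn with the dispersions that edgeR fitted to these libraries, so it cannot rank the tools on the real counts. Replicate libraries all differed by more than counting noise. Values in every library are given for genes past the threshold or with groups apart and, per role, for the most abundant gene and the 2 with the smallest p; from each other list the genes past the threshold are named, or else the 2 with the smallest p. The result for 1 gene that this rule names is not reported here.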

Additional observations from a re-analysis of the deposited data

How the results depend on the processing

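The count of replication genes past the threshold, 0 in edgeR, became 5 with DESeq2 and 2 with limma-voom, and was 0 with every other alternative, each library left out included. Over all genes the count of 67 became 103 with upper-quartile factors, 157 with a filter of 20 CPM in 4 libraries, 795 with DESeq2, 389 with limma-voom and 222 with sample weights. It was 1, 8, 52 and 2 without open neural tubes 9, 10, 13 and 14 in turn, and 172, 19, 22 and 6 without protrusions 1, 2, 3 and 4. The 7 genes with groups apart kept their direction in all 16 alternatives. They were picked for that gap, so leaving out a library could hardly reverse them, and the kept direction adds no support. Their adjusted p ran from 0.00739 to 0.219 for Cdt1, 0.00772 to 0.236 for Rrm2, 0.00585 to 0.244 for Rrm1, 0.0275 to 0.312 for Lig1, 0.0369 to 0.365 for Orc6, 0.0661 to 0.393 for Orc2 and 0.0649 to 0.359 for Mcm5. Of the 19 genes with values in every library, 2 changed sign with a library left out: Gins2 ran from −0.049 (without protrusion 1) to 0.26, and Ccne1 from −0.22 to 0.030 (without open neural tube 9), with 0.0077 without protrusion 4. The cause was not tested. The median log2 fold change of all genes, 0.08, became 0.47 without the filter on low counts, 0.35 in limma-voom and 0.17 without scaling factors. Without that filter it was taken over 18121 genes in place of 11036, while the 44 genes stayed the same. The median of the 44 genes lay between −0.08 and 0.10 over the alternatives. Whether these genes are steadier than others was not tested. With the filter of 20 CPM in 4 libraries, the median was −0.005 for all genes and −0.034 for the replication genes kept. The 11 genes under 20 CPM had SEs of 0.62 to 1.80 on the log2 scale, and 5 of them had 0 reads in at least 1 library.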
